A study of Mus musculus with 6 samples.

Results

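Long-term hematopoietic stem cells (LT-HSCs) that differ in surface CD61 were compared here for 31 genes that act in G2, mitosis and cytokinesis. The genes were taken by gene symbol from a fixed list, and that list was chosen with earlier results of these data known. All 31 were found among the 55450 annotated genes of the count tables, and all 31 passed the filter on low counts that left 15610 genes for testing. CD61 is integrin beta 3, encoded by Itgb3. The CD61High libraries came from the 10% of LT-HSCs with the most CD61 and the CD61Low libraries from the 10% with the least, with 3 libraries of 5000 cells in each group. Both groups came from wild-type male C57/Bl6 mice aged 22 to 24 months and no treatment or introduced allele is given for either. Cells of both groups were gated as CD150+, CD48-, cKit+, Sca1+ and Lin-. Each title gives a library 1 mouse number, and mice 1, 2 and 3 each supplied both gates, but the sorting protocol mentions pools of LT-HSCs. The numbers are read here as 3 animals. No source names the tissue from which the cells were taken.

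Mitotic genes are transcribed in a wave that starts after DNA replication and ends when the cell divides. In resting cells the DREAM complex, built on the MuvB core and the pocket proteins p107 and p130, holds them silent. In dividing cells the same core binds B-MYB and then FOXM1 and turns them on through a promoter sequence named the cell cycle genes homology region (CHR), often beside CCAAT boxes bound by NF-Y. LT-HSCs are known for spending most of their time outside the cycle, so transcripts of this wave are usually scarce in them and abundant in the dividing precursors that descend from them.

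The promoters of the group carry these sequences more often than other promoters. RefSeq promoter windows on GRCm38.p6, of 250 bases before and 50 bases from the annotated start, matched 27 of the 31 genes. TTTGAA, the CHR core, or its complement TTCAAA lay in a window of 20 of the 27 genes (74.1%), against 20.2% of all 27025 genes with a window. CCAAT or its complement ATTGG lay in a window of 21 of the 27 genes (77.8%), against 41.1% of all genes. Both were present in 18 of the 27 (66.7%), against 7.97% of all genes. TTTAAA, a variant core, was found in 8 of the 27 (29.6%) and in 14.9% of all genes. TTTGAA and CCAAT share letters, and a pair of matches overlapped in 1 member, Cdca8 (3.70%), against 0.155% of all genes. Members with neither TTTGAA nor CCAAT were Birc5, Nuf2, Nusap1 and Tacc3. Ccna2, Aurkb, Kif20a and Tpx2 have no window here. A match is a run of letters and not evidence of binding. The 100 bases before the start are shown for the genes on which the results below turn, 5′ to 3′ on the coding strand, with TTTGAA and CCAAT matches on either strand in capitals. Cdc20 (chr4:118437344-118437443, minus strand) and Cdk1 (chr10:69352913-69353012, minus strand) show the common arrangement of CCAAT boxes upstream of a CHR core. Top2a (chr11:99024190-99024289, minus strand), Ube2c (chr2:164769829-164769928, plus strand) and Kif11 (chr19:37376282-37376381, plus strand) have it too, although they differ in level and response. Ckap2l (chr2:129297213-129297312, minus strand) and Ttk (chr9:83834589-83834688, plus strand) were higher in CD61High cells of every mouse, and the TTTGAA of Ttk lies just after its start and so outside the bases shown. Nuf2 (chr1:169531465-169531564, minus strand) is shown because it has no match and had the same library order as most members.
Cdc20: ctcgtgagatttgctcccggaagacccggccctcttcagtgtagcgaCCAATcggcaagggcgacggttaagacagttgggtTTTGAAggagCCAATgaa
Cdk1: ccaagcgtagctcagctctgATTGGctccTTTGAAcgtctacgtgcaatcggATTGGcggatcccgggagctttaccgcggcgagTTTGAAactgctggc
Top2a: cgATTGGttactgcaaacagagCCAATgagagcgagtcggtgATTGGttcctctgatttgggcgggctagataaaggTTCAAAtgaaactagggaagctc
Ube2c: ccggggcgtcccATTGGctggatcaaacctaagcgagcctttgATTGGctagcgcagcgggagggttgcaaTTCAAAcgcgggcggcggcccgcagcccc
Kif11: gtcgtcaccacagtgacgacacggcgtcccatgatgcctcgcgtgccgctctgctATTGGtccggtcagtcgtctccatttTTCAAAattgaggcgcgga
Ckap2l: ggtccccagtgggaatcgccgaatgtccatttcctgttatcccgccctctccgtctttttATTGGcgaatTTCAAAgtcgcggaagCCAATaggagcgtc
Ttk: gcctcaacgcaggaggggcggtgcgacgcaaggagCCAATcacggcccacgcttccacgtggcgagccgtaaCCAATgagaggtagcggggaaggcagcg
Nuf2: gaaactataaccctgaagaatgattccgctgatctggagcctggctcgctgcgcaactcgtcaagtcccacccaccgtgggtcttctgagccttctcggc

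**Figure D1:**
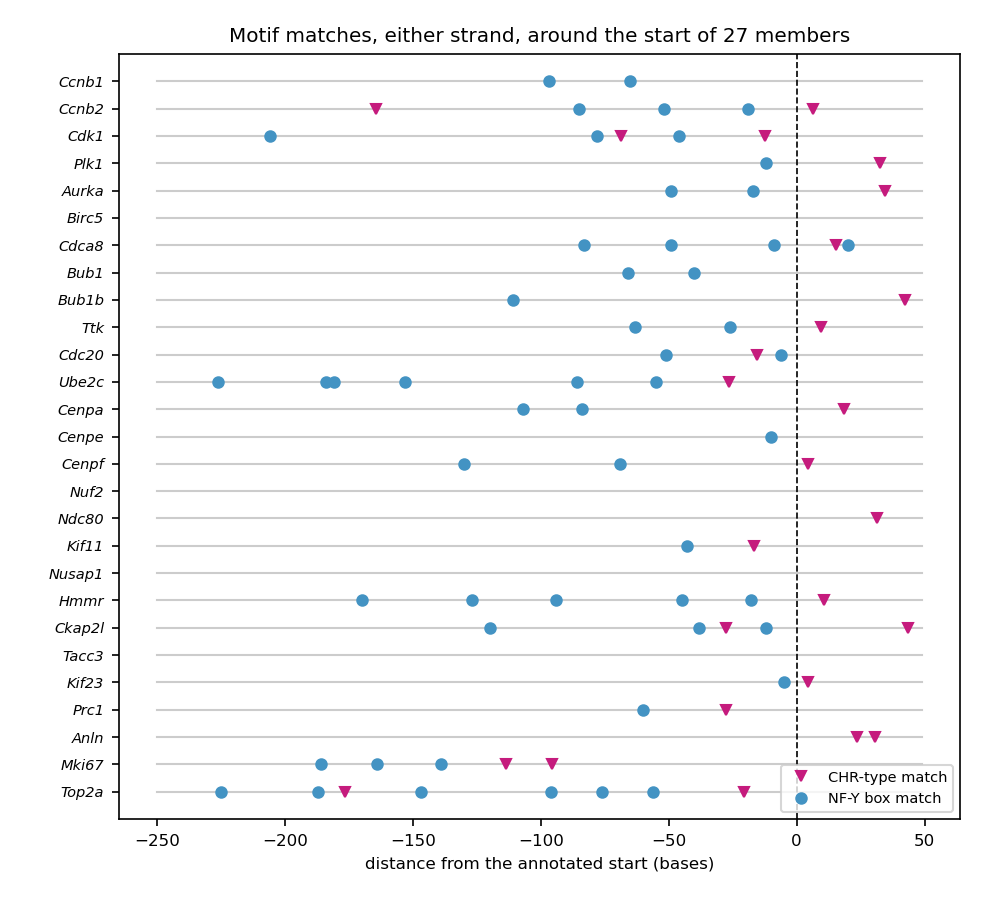
Matches to the CHR core (triangles) and to the NF-Y box (circles) on either strand in the promoter windows of 27 members, plotted by distance in bases from the annotated start (dashed line). Circles lie mostly upstream and triangles mostly near or just after the start; 4 rows, Birc5, Nuf2, Nusap1 and Tacc3, hold no mark.

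Counts on genes totalled 21354130 to 25019004 in the CD61High libraries and 24210825 to 26398090 in the CD61Low libraries. Levels are given below as TMM-adjusted CPM, in which each count is divided by its library's total after a correction for composition (trimmed mean of M values). The group held between 9719 counts (CD61Low of mouse 3) and 144661 counts (CD61Low of mouse 2) in a library, and no member had fewer than 116 counts in any library. Counting error was therefore small beside the differences between mice. The LT-HSC label fitted the markers in part. Kit, the stem cell factor receptor of the gate, stood at 1536, 1084 and 1770.4 CPM in CD61High of mice 1, 2 and 3 and at 1962, 574 and 1816 CPM in CD61Low. Ly6a, which encodes Sca1 of the gate, stood at 119, 73.0 and 71.6 CPM in CD61High and 282, 155 and 231 CPM in CD61Low, without overlap (edgeR's log2 fold change -1.34, SE 0.31, adjusted p = 0.652, or -1.34, SE 0.16, adjusted p = 0.0446 with mouse as a block). Cd48, which the gate excludes, stood at 5.54, 59.8 and 1.07 CPM in CD61High and 29.5, 129 and 1.67 CPM in CD61Low. The 14 neutrophil granule genes summed to 4741, 77103 and 236 CPM in CD61High and to 19722, 151683 and 1525 CPM in CD61Low. Both libraries of mouse 2 therefore stand apart, with the most transcript of mature blood cells, and results are given with and without them. Itgb3 itself was not called as different: it stood at 206, 139.6 and 226 CPM in CD61High and 294, 129 and 336 CPM in CD61Low (log2 fold change -0.41, SE 0.39, adjusted p = 0.926, edgeR's quasi-likelihood test).

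Transcripts of the 31 genes were more abundant in CD61High than in CD61Low LT-HSCs in mice 1 and 3 and slightly less abundant in mouse 2. Summed over the group, the level was 2627, 5483 and 3220 CPM in CD61High of mice 1, 2 and 3, against 1254, 7142 and 361 CPM in CD61Low. The groups overlap, because CD61Low of mouse 2 is the highest of the 6 libraries and CD61Low of mouse 3 the lowest. CD61High cells held 2.10 times the CD61Low sum in mouse 1, 0.768 times in mouse 2 and 8.91 times in mouse 3. The mean of the sums was 3776 ± 1507 CPM in CD61High and 2919 ± 3684 CPM in CD61Low (SD, n = 3 each), a gap smaller than the spread within either group. In bulk libraries of this kind, fewer cycling cells and less mitotic RNA in each cell cannot be told apart.

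**Figure D2:**
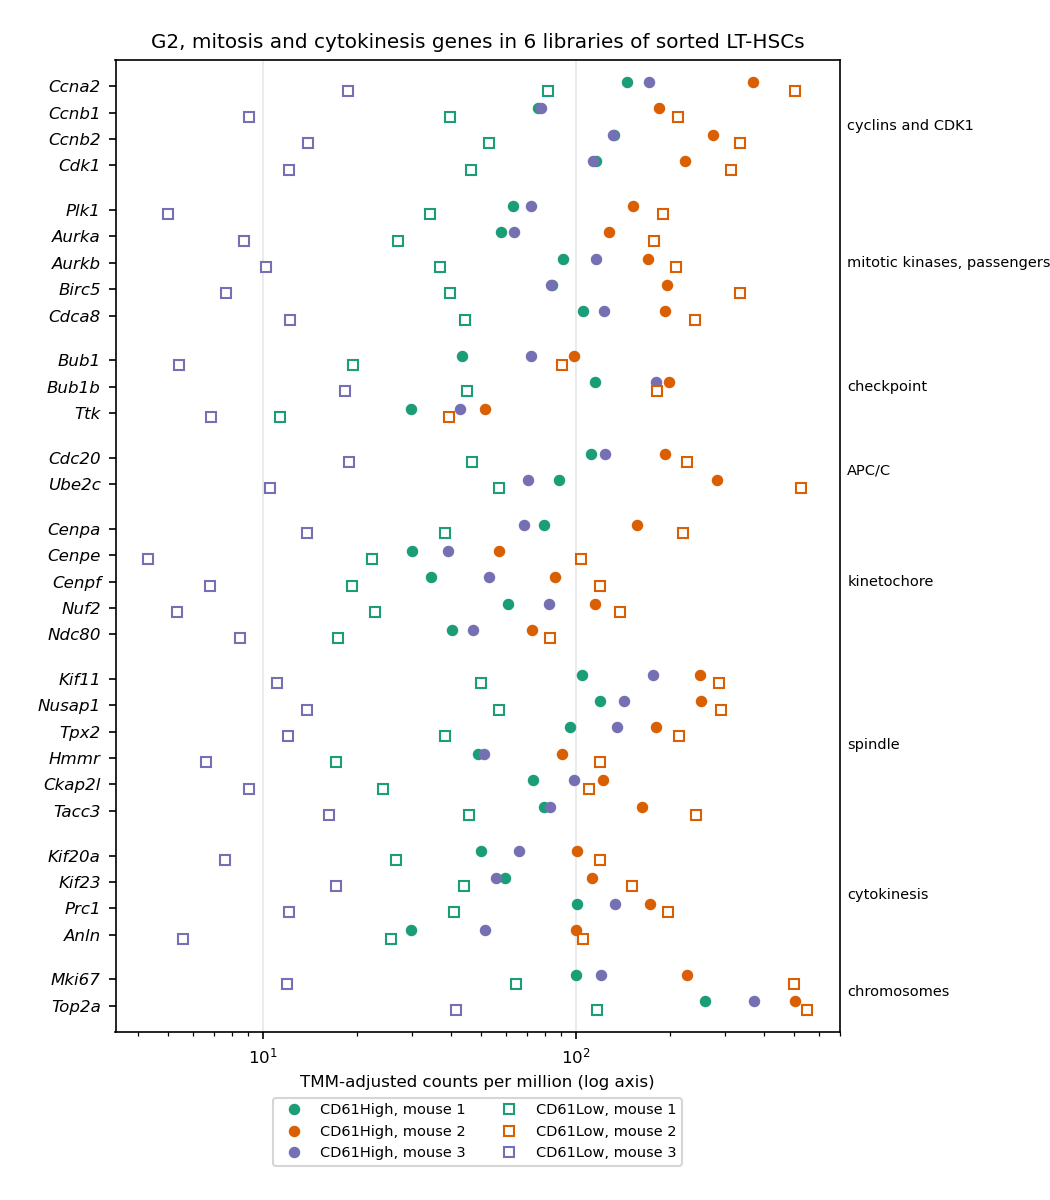
TMM-adjusted CPM (log axis) of each of the 31 genes, ordered by role, in the 3 CD61High libraries (filled circles) and the 3 CD61Low libraries (open squares), coloured by mouse. The open square of mouse 3 is leftmost and that of mouse 1 is second from the left in all 31 rows, and the open square of mouse 2 is rightmost in 27.

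The order of the libraries was nearly the same for every gene. CD61Low of mouse 3 was the lowest library for all 31 genes and CD61Low of mouse 1 the fifth for all 31. CD61Low of mouse 2 was the highest for 27 genes and CD61High of mouse 2 for the other 4, Bub1, Bub1b, Ttk and Ckap2l. For those 27 genes the 3 CD61High libraries lay between the CD61Low libraries of mice 2 and 3. Over all 31 genes, the CD61High libraries had a ratio of highest to lowest of 1.68 to 4.03 per gene. The CD61Low libraries spread over a ratio of 5.76 (Ttk) to 49.9 (Ube2c).

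Within mice, the median log2 difference of the 31 genes, CD61High minus CD61Low, came to 1.09 for mouse 1, -0.29 for mouse 2 and 3.19 for mouse 3. Over all genes tested the medians were 0.00, -0.06 and -0.01. All 31 genes were higher in CD61High in mouse 1, where 50.0% of all genes were, and all 31 in mouse 3, where 48.2% were. In mouse 2, 4 of the 31 were higher, against 44.9% of all genes. With library sizes in place of TMM factors, 15 of the 31 were higher in mouse 2, with a median of -0.02 beside 0.21 for all genes; the directions in mice 1 and 3 did not change. The pattern of higher in mice 1 and 3 and lower in mouse 2 was shown by 27 of the 31 genes, against 14.2% of all genes. Only 4 of the 31 were higher in all 3 mice, against 20.7% of all genes, and 0 of the 31 had CD61High and CD61Low values that did not overlap, against 8.66% of all genes higher without overlap. In mouse 3, 30 of the 31 genes differed by at least 2 on the log2 scale, as did 2.06% of all genes, and 72 of the 15610 genes (0.461%) reached the members' median there.

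**Figure D3:**
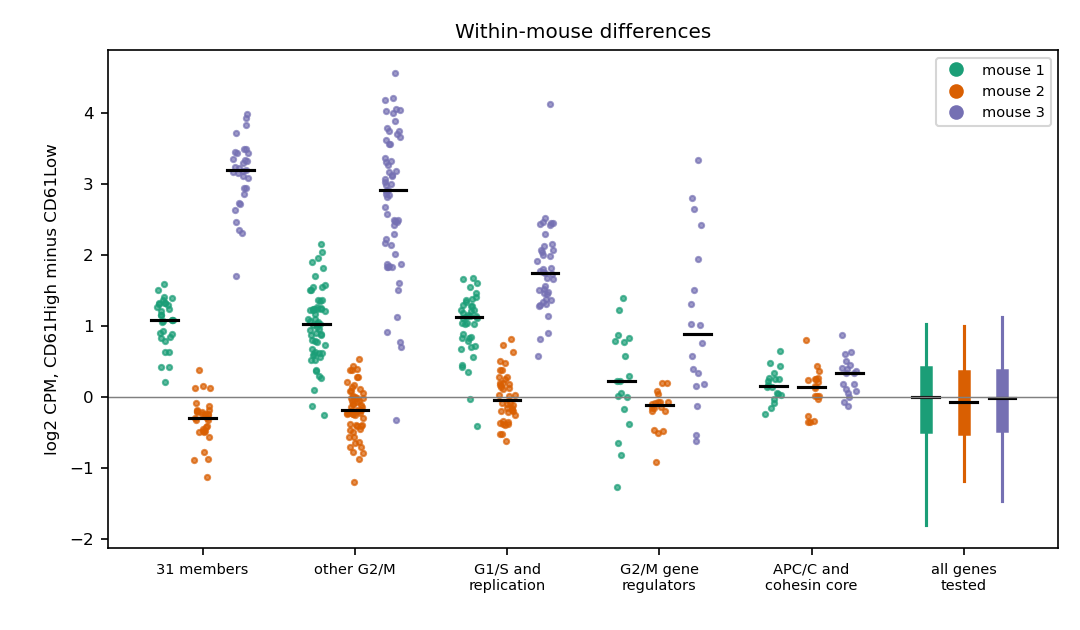
Difference in log2 CPM, CD61High minus CD61Low, of each gene in mice 1, 2 and 3 (points, with a bar at the median) for the 31 members and 4 other lists, beside all genes tested (box from the 25th to the 75th percentile, line from the 5th to the 95th). The members' medians are 1.09, -0.29 and 3.19, and those of all genes lie within 0.1 of 0.

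The 4 genes of the mitotic cyclins and their kinase shared the pattern of the whole group. Ccna2 encodes cyclin A2, which acts from S phase to the entry into mitosis, and it stood at 146, 369.5 and 172 CPM in CD61High and 81.5, 505 and 18.8 CPM in CD61Low. Other annotated exons overlap 12.5% of the exon length of Ccna2, and 431 bases match Exosc9 in the opposite orientation. Ccnb1, cyclin B1, stood at 75.8, 185 and 77.4 CPM in CD61High and 39.6, 213 and 9.07 CPM in CD61Low. It shares at least 95% of a stretch of its sequence with 4 pseudogenes, among them Ccnb1-ps at 99.2% identity, so its counts are uncertain where reads could belong to a copy. Ccnb2, cyclin B2, stood at 132, 274 and 132 CPM in CD61High and 53.0, 336 and 14.0 CPM in CD61Low. Cdk1, the kinase that drives entry into mitosis, stood at 116, 224 and 114 CPM in CD61High and 46.3, 314 and 12.1 CPM in CD61Low, or 151 ± 62.7 against 124 ± 165 CPM (SD, n = 3 each). All 4 were lower in CD61High of mouse 2, with log2 differences of -0.49 to -0.21, and higher by 3.08 to 3.23 in mouse 3. Per kilobase of exon, Ccnb2 had the highest mean level of the 31 genes, 103 CPM per kb, while Ccna2 had 52.7, Cdk1 27.9 and Ccnb1 23.7 CPM per kb.

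Mitotic kinases and the chromosomal passenger complex behaved alike. Plk1 encodes polo-like kinase 1, which acts in centrosome maturation, spindle assembly and cytokinesis. It stood at 63.3, 153 and 71.9 CPM in CD61High and 34.3, 191 and 4.98 CPM in CD61Low, with the third largest difference of the group in mouse 3, 3.83 on the log2 scale. Aurka, the spindle pole kinase Aurora A, stood at 57.9, 128 and 63.4 CPM in CD61High and 27.2, 178 and 8.70 CPM in CD61Low. Aurora B, the passenger complex kinase encoded by Aurkb, stood at 91.3, 170.5 and 116 CPM in CD61High and 37.0, 209 and 10.3 CPM in CD61Low. Its partners survivin (Birc5) and borealin (Cdca8) place the kinase at the centromere. Birc5 stood at 84.0, 196 and 83.4 CPM in CD61High and 39.7, 335 and 7.66 CPM in CD61Low, and Cdca8 at 105, 193 and 123 CPM in CD61High and 44.5, 241 and 12.2 CPM in CD61Low. The 5 genes were higher in CD61High by 0.88 to 1.30 in mouse 1 and by 2.85 to 3.83 in mouse 3, and all 5 were lower in mouse 2, by -0.77 (Birc5) to -0.29.

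The 3 kinases of the spindle assembly checkpoint, which holds back anaphase until every chromosome is attached, were the exception. All 3 were higher in CD61High in every mouse. Bub1, which recruits shugoshin and other checkpoint proteins to kinetochores, stood at 43.2, 99.0 and 72.1 CPM in CD61High and 19.4, 90.5 and 5.39 CPM in CD61Low. Bub1b encodes BubR1, a subunit of the complex that inhibits the anaphase-promoting complex, and it stood at 115, 199.5 and 181 CPM in CD61High and 45.0, 182 and 18.3 CPM in CD61Low. Ttk encodes the kinase MPS1, which starts checkpoint signalling (GRCm38 chr9:83834689-83872389, plus strand), and it stood at 29.9, 51.2 and 42.7 CPM in CD61High and 11.3, 39.4 and 6.84 CPM in CD61Low. The margins in mouse 2 were small, 0.13 for Bub1, 0.13 for Bub1b and 0.38 for Ttk on the log2 scale, while those in mouse 3 were 3.72, 3.30 and 2.63. The exception depends on the TMM factors. With library sizes in their place, 15 of the 31 members were higher in CD61High of mouse 2. CD61High and CD61Low still overlapped for all 3, since CD61Low of mouse 2 lay above CD61High of mouse 1. The mean of Ttk was 41.2 ± 10.7 CPM in CD61High and 19.2 ± 17.7 CPM in CD61Low (SD, n = 3 each).

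Both genes that act with the anaphase-promoting complex were high in CD61Low of mouse 2. Cdc20, the co-activator through which the complex starts anaphase, stood at 112, 193 and 124 CPM in CD61High and 46.5, 228 and 18.9 CPM in CD61Low. Ube2c, its ubiquitin-conjugating enzyme, stood at 88.4, 284 and 70.5 CPM in CD61High and 56.9, 527 and 10.6 CPM in CD61Low. Ube2c had the widest spread of the 31 genes among CD61Low libraries, and its log2 difference in mouse 2 was -0.89. Exons of Tnnc2 overlap 22.8% of the exon length of Ube2c, and the libraries do not record the strand. Per kilobase they ranked next after Ccnb2, with mean levels of 66.5 (Ube2c) and 64.4 (Cdc20) CPM per kb.

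Centromere and kinetochore genes were lower in level but followed the same order. Cenpa, the histone H3 variant that marks the centromere, stood at 79.1, 157 and 68.6 CPM in CD61High and 38.2, 221 and 13.8 CPM in CD61Low. Cenpe, a kinesin that carries chromosomes to the spindle equator, stood at 30.1, 56.8 and 39.2 CPM in CD61High and 22.4, 104 and 4.31 CPM in CD61Low. Cenpf, a large kinetochore protein that accumulates in G2, stood at 34.5, 85.7 and 52.9 CPM in CD61High and 19.3, 120.1 and 6.81 CPM in CD61Low and had the lowest mean level per kilobase of the 31, 3.45 CPM per kb. Nuf2 and Ndc80 encode partners in the complex that grips microtubule ends. Nuf2 stood at 60.9, 116 and 82.3 CPM in CD61High and 22.8, 138 and 5.32 CPM in CD61Low, and its difference in mouse 3, 3.93, was second only to Kif11. Ndc80 stood at 40.4, 72.7 and 47.1 CPM in CD61High and 17.4, 82.6 and 8.48 CPM in CD61Low. The 5 genes differed by 2.30 (Cenpa) to 3.93 (Nuf2) in mouse 3 and by -0.87 (Cenpe) to -0.18 (Ndc80) in mouse 2.

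Among spindle motors and microtubule-associated proteins, Kif11 showed the largest difference of the group in mouse 3. Kif11, the kinesin Eg5 that pushes spindle poles apart, stood at 105, 250.5 and 177 CPM in CD61High and 49.7, 287 and 11.1 CPM in CD61Low, a log2 difference of 3.99 in mouse 3. Tpx2, which activates Aurora A and nucleates microtubules near chromosomes, stood at 95.8, 181 and 136 CPM in CD61High and 38.2, 214 and 12.1 CPM in CD61Low. Nusap1, a microtubule-bundling protein, stood at 120.1, 251 and 142 CPM in CD61High and 56.9, 291 and 13.9 CPM in CD61Low. Hmmr, a hyaluronan receptor that also binds the spindle, stood at 48.9, 90.4 and 50.9 CPM in CD61High and 17.2, 119.8 and 6.58 CPM in CD61Low. Ckap2l, which encodes the spindle protein radmis, stood at 73.0, 123 and 99.2 CPM in CD61High and 24.3, 110.1 and 9.07 CPM in CD61Low. With TMM factors, it was the single gene outside the checkpoint kinases that was higher in CD61High of all 3 mice, with log2 differences of 1.58, 0.16 and 3.44. Tacc3, which stabilises spindle fibres together with clathrin, stood at 79.2, 163 and 83.2 CPM in CD61High and 45.8, 242 and 16.3 CPM in CD61Low. These 6 genes had median log2 differences of 1.20 in mouse 1, -0.22 in mouse 2 and 3.40 in mouse 3.

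Central spindle and cytokinesis genes included the single genes with the smallest differences of the group in mice 1 and 3. The medians of these 4 genes were 0.66, -0.22 and 3.14 on the log2 scale in mice 1, 2 and 3. Those of the 31 genes were 1.09, -0.29 and 3.19. Prc1 encodes the protein that bundles the midzone, and it stood at 101, 173 and 134 CPM in CD61High and 41.0, 198 and 12.2 CPM in CD61Low. Kif20a, the kinesin that brings the passenger complex to the midzone, stood at 49.7, 101 and 66.1 CPM in CD61High and 26.7, 120.0 and 7.59 CPM in CD61Low; exons of Cdc23 overlap 29.3% of its exon length. Kif23 encodes the kinesin subunit of centralspindlin, and it stood at 59.4, 113 and 55.6 CPM in CD61High and 44.1, 152 and 17.1 CPM in CD61Low. Anln, the cleavage furrow scaffold anillin, stood at 29.7, 100.1 and 51.2 CPM in CD61High and 25.8, 106 and 5.58 CPM in CD61Low. Kif23 had the smallest difference of the 31 genes in mouse 3, 1.70, and Anln the smallest in mouse 1, 0.20. Antisense overlap of Prc1 with Rccd1 covers 11.1% of its exon length.

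The chromosome structure genes were the most used markers of proliferation. Mki67 encodes Ki-67, which coats mitotic chromosomes and is absent from resting cells, and it stood at 101, 227 and 121 CPM in CD61High and 64.6, 498 and 11.9 CPM in CD61Low. Top2a, the topoisomerase that untangles sister chromatids, stood at 259, 503 and 371 CPM in CD61High and 117, 549 and 41.5 CPM in CD61Low. Mki67 had the lowest log2 difference of the 31 genes in mouse 2, -1.13, whereas Top2a differed by -0.13 there. In mouse 3 they differed by 3.33 (Mki67) and 3.16 (Top2a).

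No member passed the test across genes. With edgeR's quasi-likelihood test and no block for mouse, 0 of the 31 genes had an adjusted p under 0.05, as did 0 of the 15610 genes tested (0%). At an unadjusted p under 0.05 in either direction, 0 of the 31 were found, against 6.55% of all genes. DESeq2 called 0 of the 31 and 237 genes in all (1.52%). The adjusted p of the members ranged from 0.834 (Ttk, log2 fold change 1.10, SE 0.67) to 0.992. The members' median log2 fold change was 0.42, beside -0.05 for all genes tested, and 27 of the 31 were positive, the negative ones being Mki67 (-0.36), Birc5 (-0.07), Cenpe (-0.05) and Ube2c (-0.43).

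The fit with mouse as a block gave the members higher fold changes but called none. Their median log2 fold change was then 1.33 and all 31 were positive, with adjusted p from 0.154 (Ttk, log2 fold change 1.45, SE 0.43) to 0.613. edgeR called 40 genes in this fit (0.256% of those tested), 0 of them members. At an unadjusted p under 0.05, 3 of the 31 were higher, Bub1b, Ttk and Ckap2l, against 8.01% of all genes. DESeq2 with the block called 1 of the 31, Ttk (log2 fold change 1.44, adjusted p = 0.00596), against 2.92% of all genes called higher.

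Leaving out both libraries of mouse 2 gave the members higher fold changes. Only in that mouse was the members' median log2 difference negative (-0.29), so the rise follows from the choice of mouse left out. With the block, the median was then 2.13, and edgeR called Ttk alone (log2 fold change 2.00, SE 0.35, adjusted p = 0.0454), 1 of 31 against 1.85% of all genes called higher. This fit has 1 residual degree of freedom. At an unadjusted p under 0.05, 22 of the 31 were higher, against 11.6% of all genes. Without the block and without mouse 2, 0 of the 31 were called (0.450% of all genes were called higher), 9 of the 31 passed at an unadjusted p under 0.05, against 10.6% of all genes, and the median was 1.84. It came to 2.25, again without the block, when only the CD61Low library of that mouse was omitted. CD61Low of mouse 3 weighed on the result too: without that library and without the block, the median log2 fold change was -0.09 and 12 of the 31 were positive.

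The balance between members also changed between libraries. Each gene was set against the median member of its own library on the log2 scale. Aurka (range 0.31 over the 6 libraries), Ccnb1 (0.33) and Ccnb2 (0.34) kept nearly the same place in all of them. Ttk varied most (1.78), followed by Ube2c (1.57), Bub1b (1.32) and Kif23 (1.28). In CD61Low of mouse 2, Ube2c lay 1.33 and Mki67 1.25 above the median member, whereas Ttk lay at -2.40. In CD61Low of mouse 3 the order differed: Ttk lay at -0.62, Kif23 at 0.69 and Plk1 at -1.07. With 1 library for each gate and mouse, these shifts have no replicate of their own.

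**Figure D4:**
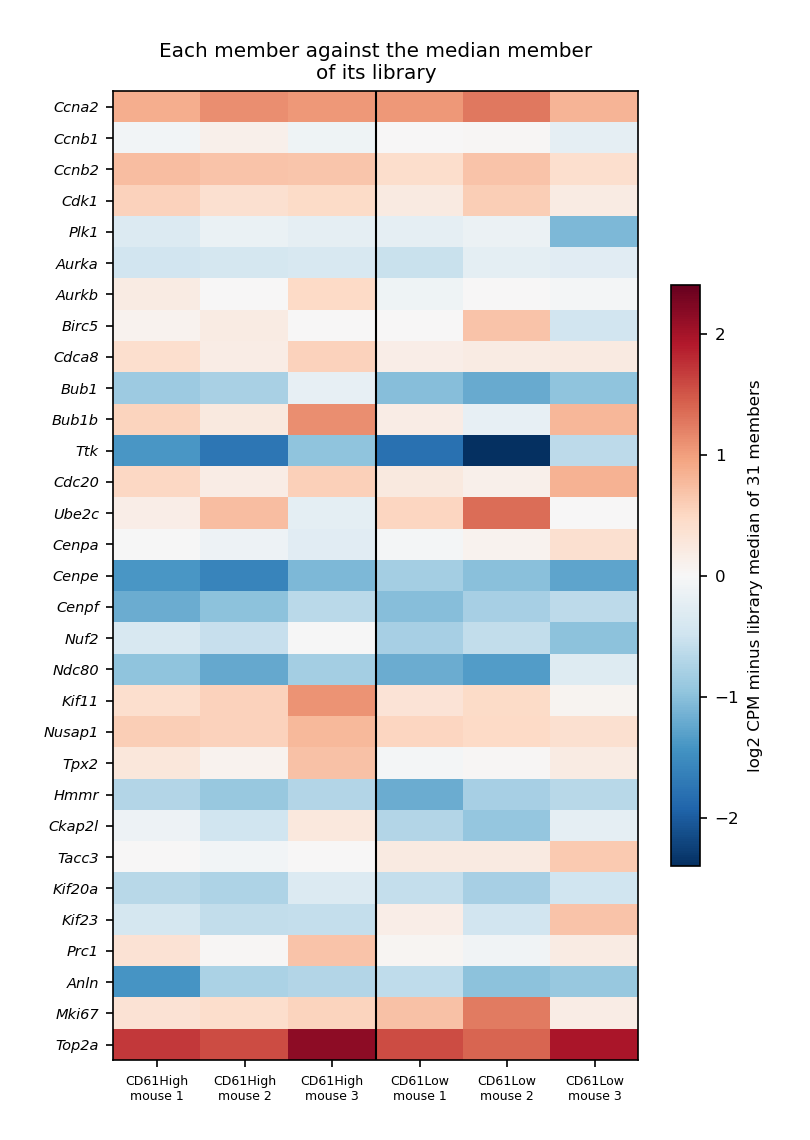
Log2 CPM of each of the 31 genes minus the median of the 31 in the same library, for the 3 CD61High libraries (left of the line) and the 3 CD61Low libraries (right). Top2a is the darkest red row, at 1.39 to 2.16; Ttk is darkest blue in CD61Low of mouse 2, at -2.40, and Ube2c darkest red there among the remaining rows, at 1.33.

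Other genes of the same phase had a similar pattern. Of 58 further G2, mitosis and cytokinesis genes, edgeR called 0 without the block and 0 with it, and 7 higher with the block and without mouse 2 (1.85% of all genes). DESeq2 called 0 without the block and 6 higher with it (2.92% of all genes). Their median log2 differences were 1.03, -0.19 and 2.91 in mice 1, 2 and 3. In all 3 mice, 15 of the 58 were higher in CD61High, near the 20.7% of all genes, and 1 was lower, against 24.7% of all genes. Higher without overlap were 4 of the 58, against 8.66% of all genes. The genes named next were taken for a small unadjusted p in edgeR's fit without the block and not as typical of the list. Stmn1, which destabilises microtubules, stood at 249, 243 and 302 CPM in CD61High and 122, 185 and 106 CPM in CD61Low, without overlap (log2 fold change 0.94, SE 0.25, adjusted p = 0.656, edgeR). Psrc1, a spindle microtubule protein, stood at 16.5, 10.8 and 12.8 CPM in CD61High and 4.19, 9.33 and 1.41 CPM in CD61Low. Pimreg, a mitotic gene known as a partner of the clathrin assembly protein CALM, stood at 41.3, 48.7 and 51.8 CPM in CD61High and 9.21, 33.7 and 2.79 CPM in CD61Low, and its CD61High values exceeded every CD61Low value. Pttg1 encodes securin, the inhibitor that separase sheds at anaphase, and was lower in CD61High of every mouse, at 32.6, 32.9 and 30.1 CPM in CD61High and 38.9, 48.7 and 37.6 CPM in CD61Low.

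Of 40 DNA replication and G1/S genes, 38 were higher in CD61High in mouse 1, 20 in mouse 2 and 40 in mouse 3. Their median log2 differences were 1.12, -0.04 and 1.75. In all 3 mice, 20 were higher, against 20.7% of all genes, and 8 were higher without overlap, against 8.66%. edgeR called 0 without the block and 0 with it, and 26 higher with the block and without mouse 2 (1.85% of all genes). DESeq2 called 4 higher without the block (0.826% of all genes) and 19 with it (2.92%). Genes of this list named next were likewise taken for a small unadjusted p in edgeR's fit without the block. Pola1, the catalytic subunit of DNA polymerase alpha, stood at 101, 109 and 144 CPM in CD61High and 46.6, 65.3 and 41.3 CPM in CD61Low. Pold1, that of DNA polymerase delta, stood at 238, 248 and 296 CPM in CD61High and 108, 160.0 and 107 CPM in CD61Low (log2 fold change 1.06, SE 0.21, adjusted p = 0.652, edgeR). Pole, that of DNA polymerase epsilon, stood at 89.0, 96.2 and 136 CPM in CD61High and 40.6, 54.7 and 56.0 CPM in CD61Low. For all 3, the lowest CD61High library lay above the highest CD61Low library. Chaf1b, a subunit of the chromatin assembly factor that follows the replication fork, did so too, at 185, 157 and 214 CPM in CD61High and 107, 113 and 121 CPM in CD61Low.

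The ratio of replication to mitotic transcripts set 1 library apart. Summed over their lists, G1/S genes held 2.30, 1.51 and 2.24 times the level of the 31 members in CD61High of mice 1, 2 and 3, and 2.21, 1.11 and 6.22 times in CD61Low. In CD61Low of mouse 3 the G1/S sum was 2250 CPM, against 2768 CPM in CD61Low of mouse 1, while the members' sum was 361 CPM against 1254 CPM. The summed level of the further G2 and mitosis genes there was 3.15 times that of the members, against 0.931 to 1.49 times in the other 5 libraries. The 3 highest genes of that sum in CD61Low of mouse 3, named after their values were seen, were Bub3 (175 CPM), Hjurp (153 CPM) and Ckap5 (113 CPM), with log2 differences of 0.70, 0.91 and 0.77 in mouse 3, well below the median of their list there.

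Regulators of the mitotic wave had smaller median differences than the members, 0.22, -0.12 and 0.88 in mice 1, 2 and 3. Of 18 regulators, edgeR called 0 with or without the block, and 3 higher (1.85% of all genes) and 1 lower (2.93%) with the block and without mouse 2. DESeq2 called 0 without the block and 3 higher with it (2.92%). Foxm1 and Mybl2, named here after their values were seen, encode FOXM1 and B-MYB. Foxm1 stood at 28.0, 65.3 and 57.6 CPM in CD61High and 24.0, 72.1 and 9.15 CPM in CD61Low, and Mybl2 at 33.8, 72.2 and 44.6 CPM in CD61High and 18.5, 101 and 4.35 CPM in CD61Low, the library order of most members. Rbl1, which encodes p107, stood at 104, 126 and 128 CPM in CD61High and 60.8, 110.3 and 51.8 CPM in CD61Low and was higher in all 3 mice. Rbl2, which encodes p130, stood at 140.4, 104 and 149 CPM in CD61High and 219.6, 101 and 217 CPM in CD61Low, lower in CD61High of mice 1 and 3. E2f1, an activator of S phase genes, stood at 49.0, 64.3 and 63.5 CPM in CD61High and 18.6, 68.3 and 11.8 CPM in CD61Low. E2f7, a repressor from the same family, stood at 25.0, 31.2 and 38.3 CPM in CD61High and 10.7, 27.3 and 9.89 CPM in CD61Low.

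Core subunits of the anaphase-promoting complex and cohesin, which do not follow the cycle, had small median differences. For the 18 genes these were 0.16, 0.15 and 0.34 on the log2 scale in mice 1, 2 and 3. With all libraries, neither edgeR nor DESeq2 called any with or without the block. With the block and without mouse 2, edgeR called 1 higher (1.85% of all genes). In all 3 mice, 8 of the 18 were higher in CD61High, against 20.7% of all genes, and 4 were higher without overlap, against 8.66%. Cdc27, a scaffold subunit, stood at 84.2, 99.9 and 102 CPM in CD61High and 72.4, 73.6 and 71.6 CPM in CD61Low. Of 16 CDK inhibitors and genes linked to quiescence, 8 were lower in CD61High in all 3 mice, where 24.7% of all genes were, and 1 was higher. The list also holds Cdk6 and the D cyclin genes Ccnd1, Ccnd2 and Ccnd3. Ccnd1 and Ccnd2 were among the lower genes, and Cdk6 was the higher one. The CDK inhibitor genes Cdkn1a, Cdkn1b, Cdkn2c and Cdkn2d were higher in CD61High of mice 1 and 3 and lower in mouse 2. Cdkn1c showed the reverse. edgeR called 0 of the 16 with or without the block, and 1 higher (1.85% of all genes) and 3 lower (2.93%) with the block and without mouse 2. DESeq2 called 1 lower without the block (0.692% of all genes), and 4 lower (7.11%) and 1 higher (2.92%) with it. Egr1, a transcription factor linked to HSC quiescence, stood at 583, 450.2 and 356 CPM in CD61High and 1572, 829 and 1413 CPM in CD61Low (log2 fold change -1.46, SE 0.31, adjusted p = 0.652, edgeR). Gfi1, which restrains HSC proliferation, stood at 11.9, 27.7 and 14.2 CPM in CD61High and 33.6, 53.9 and 43.0 CPM in CD61Low. Cdk6, whose product drives exit from quiescence, stood at 127, 120.4 and 124 CPM in CD61High and 53.2, 99.6 and 43.4 CPM in CD61Low. For these 3 genes the CD61High and CD61Low values did not overlap, with 1 of the 16 higher and 2 lower. They were named for a small unadjusted p in edgeR's fit without the block and not as typical of the list. Of the 15610 genes tested, 1352 were higher without overlap (8.66%) and 885 were lower without overlap.

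Markers of other blood cells followed the library order of the members in part. Mature neutrophil genes were highest in mouse 2, where the members were highest, but all 14 were lower in CD61High than in CD61Low in all 3 mice. Their sums ran in the same order as the members in CD61Low, mouse 2 above mouse 1 above mouse 3. In the CD61High libraries of mice 1 and 3 the orders differed, with neutrophil sums of 4741 and 236 CPM and members' sums of 2627 and 3220 CPM. Mature neutrophils do not divide, so the lists of their precursors and of other dividing lineages are given as well. Granulocyte precursor genes summed to 2589, 6889 and 2004 CPM in CD61High and to 2945, 9327 and 1959 CPM in CD61Low. In mouse 3, Calr alone gave 952 CPM of that sum in CD61High and 723 CPM in CD61Low. Erythroid precursor genes summed to 3957, 19680 and 3085 CPM in CD61High and to 5240, 40495 and 2838 CPM in CD61Low. Car2 gave 2447 CPM of it in CD61High of mouse 3 and 1823 CPM in CD61Low. B-cell precursor genes summed to 82.4, 314 and 46.7 CPM in CD61High and to 185, 550 and 55.6 CPM in CD61Low. Cd79b gave 45.0 CPM of it in CD61High of mouse 3 and 51.6 CPM in CD61Low. In mouse 3 these precursor sums therefore say little of the other genes in each list. Monocyte and dendritic cell genes summed to 1167, 9887 and 361 CPM in CD61High and to 3422, 18780 and 509 CPM in CD61Low. Megakaryocyte genes were higher in CD61High, with sums of 2954, 1804 and 3112 CPM against 2462, 976 and 2837 CPM in CD61Low. Their median log2 differences were 0.89, 1.33 and 1.23 in mice 1, 2 and 3. Of the 9 tested, 7 were higher in all 3 mice, against 20.7% of all genes, and 4 were higher without overlap, against 8.66%.

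In mouse 3, where the members differed most, 8 of 10 granulocyte precursor and 11 of 15 erythroid precursor genes were lower in CD61High. Of all genes tested, 48.2% were higher in CD61High of that mouse. So were 4 of 8 basophil, mast cell and eosinophil genes. Among the genes tested, 3 of 9 T and NK cell genes and 2 of 11 B-cell precursor genes were higher too. Mpo, the myeloperoxidase of primary granules, stood at 0.406 CPM in CD61High and 37.9 CPM in CD61Low of that mouse. Elane, neutrophil elastase, stood at 0.295 CPM in CD61High and 24.2 CPM in CD61Low. Igll1, Dntt and Rag1, defining genes of B-cell precursors, had 0 counts in both libraries of mouse 3, which allows up to 0.111 CPM in CD61High and 0.112 CPM in CD61Low. Klf1, an erythroid transcription factor, stood at 5.17 CPM in CD61High and 7.59 CPM in CD61Low. Exceptions, named after their values were seen, included Gata1 (31.8 CPM in CD61High, 4.13 CPM in CD61Low), Epor (37.0 CPM in CD61High, 10.9 CPM in CD61Low) and Fcer1a (1.51 CPM in CD61High, 0.149 CPM in CD61Low). Gata1 and Epor act in erythroid and megakaryocyte precursors, and Fcer1a in basophils and mast cells. LT-HSC markers summed to 5325, 3004 and 5687 CPM in CD61High and to 6838, 2258 and 7175 CPM in CD61Low, lowest in mouse 2. In mouse 2 every precursor list was at its highest in both gates and higher in CD61Low than in CD61High, the direction of 27 of the 31 members there. The part of these other cells in the members' levels was not tested.

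**Figure D5:**
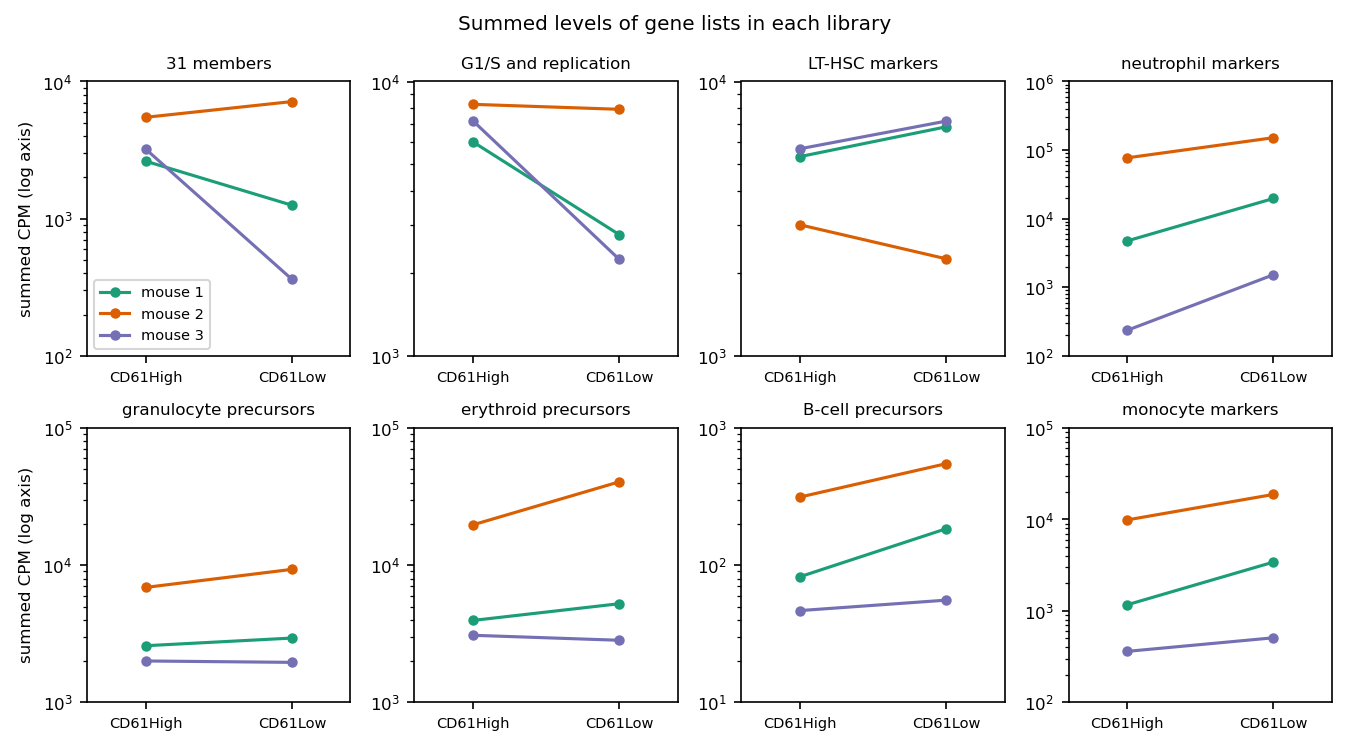
Summed TMM-adjusted CPM (log axes, with a scale for each panel) of the 31 members and 7 other lists in the CD61High and CD61Low library of each mouse, joined by a line per mouse. The members are lower in CD61Low in mice 1 and 3 (1254 and 361 CPM) than in CD61High (2627 and 3220 CPM), while neutrophil markers are higher in CD61Low in all 3 mice.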

How the data were processed

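Bulk RNA-seq was made from 6 libraries of sorted LT-HSCs, 3 CD61High and 3 CD61Low. Per the labels' protocols, 4 ng of RNA per sample went into SMART-Seq v4 cDNA synthesis, and 1 ng of the product into Nextera XT libraries. The authors deposited unnormalized counts per gene, 1 table per library and 1 for the series; STAR 2.7, MultiQC and edgeR were used per the submitters' processing notes, and a build is not given in the sources used here. All 55450 identifiers matched GENCODE M21 on GRCm38, which supplied symbols and coordinates; the series table keeps 17500 genes, with 0 values that differ between the tables. Unstranded counts were used (first-strand share 49.9% to 50.0%). Lines naming no gene were left out: unmapped reads were 4.36% to 10.9%, multimapping 10.0% to 15.6%, outside genes 2.88% to 4.21% and ambiguous 3.55% to 4.37%. Total counts ran from 21354130 to 26398090. A count of 0 allows up to 3 counts, and this floor covers counting error only. No libraries agreed within sampling noise (lowest chi-square per degree of freedom within a group 44.8).

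The test across genes was the quasi-likelihood test of edgeR 4.0.16, run in R 4.3.3 (robust dispersion, TMM, filterByExpr, two-sided, Benjamini-Hochberg over 15610 genes, called at an adjusted p under 0.05) without a block; the mouse block, DESeq2 1.42.0, other scalings, no filter and leaving out libraries were alternatives. Leaving out mouse 2 without the block was chosen after seeing the data. Each SE given for edgeR is the absolute log2 fold change divided by the square root of the test's F statistic. It therefore adds nothing to that test. Log2 CPM carries a prior count of 2, and level differences are in CPM or log2 CPM, computed here. Libraries of 1 number share an animal by title; their deviations from the group means correlated at 0.236, 0.806 and 0.761 in mice 1, 2 and 3, against -0.823 to 0.374 between mice. The fitting script was tested on simulated data. All 31 members are named; from other lists, the genes with the smallest unadjusted p (4 for G2 and mitosis, regulator and G1/S lists, 3 for others) and set markers were eligible. Members and lists were chosen with earlier results of these data known.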

Additional observations from a re-analysis of the deposited data

How the results depend on the processing

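The count of members called stayed at 0 under relative log expression or upper-quartile factors, library sizes alone, no filter, DESeq2 without a block, and each left-out library. The number of genes called was 0 without the block and 40 with the replicate block, 237 with DESeq2, 1566 with DESeq2 and the replicate block, 742 with the block and without mouse 2, 7 with the block and without mouse 3, and 0 to 133 when libraries were left out without the block. Ttk was the 1 member called under DESeq2 with the block and under the block without mouse 2. Leaving out libraries without the block moved the members' median log2 fold change between -0.091, when CD61Low of mouse 3 was omitted, and 2.25, when that of mouse 2 was, that of the other G2 and mitosis genes between 0.090 and 2.12, that of G1/S genes between 0.39 and 1.57, and the log2 ratio of the members' mean sums, 0.37 with all libraries, between -0.15 and 2.23. With library sizes alone the median of all genes shifted by under 0.1 in the fit without a block, but to 0.21 within mouse 2.

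The 4 members below 0 in the fit without the block were positive with it: Mki67 at 0.87, Birc5 at 1.19, Cenpe at 0.79 and Ube2c at 0.78 (DESeq2 with the block: 0.86, 1.20, 0.81 and 0.78). With the block and without mouse 1 they stood at 1.07, 1.29, 1.09 and 0.89, and without mouse 2 at 1.93, 2.20, 1.73 and 1.64. With the block and without mouse 3, Birc5 stood at 0.14 and Kif23 at -0.0046. With library sizes alone, Birc5 stood at 0.24 and Cenpe at 0.23. The block changed no call but those given. Without the block, the fold changes of 19 members changed sign when a library, or both of mouse 2, was left out: Anln (-0.18 to 1.94), Aurka (-0.28 to 2.21), Birc5 (-0.61 to 2.36), Ccna2 (-0.35 to 2.19), Ccnb1 (-0.19 to 2.21), Ccnb2 (-0.094 to 2.42), Cdca8 (-0.0086 to 2.31), Cdk1 (-0.23 to 2.37), Cenpa (-0.33 to 1.96), Cenpe (-0.58 to 1.66), Cenpf (-0.25 to 2.14), Hmmr (-0.091 to 2.42), Kif20a (-0.0052 to 2.08), Kif23 (-0.35 to 1.31), Mki67 (-0.89 to 1.97), Nusap1 (-0.0044 to 2.28), Plk1 (-0.21 to 2.29), Tacc3 (-0.39 to 1.80) and Ube2c (-1.32 to 2.13). The cause was not tested. The lowest count of a member in any library was 116.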
